A study of Mus musculus with 2 samples.

Results

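The genes described here are the 8 members of the suppressor of cytokine signalling family, Socs1 to Socs7 and Cish, taken by symbol from a table of 21983 genes. All 8 were in the table. The study sequenced RNA from primary chondrocytes, the cartilage-forming cells, of WT mice. One library came from cells given recombinant mouse Sparcl1, a secreted matricellular protein, at 50 ng/ml, and the other from control cells given PBS, both over 3 days. Both groups share the WT genotype and the culture medium with 10% FBS, and the joint, the age of the mice and the number of cultures are not given in the sources used here. There was 1 library per group, so no value below has a replicate check.

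Cytokines such as interleukin 6, growth hormone and the interferons bind receptors that carry JAK kinases, and these kinases switch on STAT transcription factors. STATs in turn raise transcription of several SOCS genes, and the SOCS proteins close the loop by blocking JAKs, by covering receptor docking sites through an SH2 domain, or by sending bound proteins for degradation through the SOCS box, which recruits a ubiquitin ligase. Cish, Socs1, Socs2 and Socs3 are the classic cytokine-induced members, while Socs4 to Socs7 are better known for actions on growth factor and insulin signalling. In growing cartilage, loss of Socs2 in mice is known for enhanced growth through growth hormone, and Socs3 restrains signalling by receptors that contain gp130.

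The Sparcl1 library held 26871933 gene counts and the control library 29858851. Chondrocyte markers were present, with 10 of 10 detected and a summed level of 11730 CPM with Sparcl1 and 13380 CPM in the control, where CPM is counts scaled to a common library size. Their median log2 ratio was -0.29, and Matn1, Matn3 and Snorc were rare. All 10 macrophage markers were also detected, at a summed 2445 CPM with Sparcl1 and 2128 CPM in the control. The 4 osteoblast markers summed to 137 CPM with Sparcl1 and 205 CPM in the control, with a median log2 ratio of -0.58. The 3 fibroblast markers summed to 6543 CPM with Sparcl1 and 8397 CPM in the control, with a median of -0.31. Most of this was Col1a1, at 6309 CPM with Sparcl1 and 8206 CPM in the control. Col1a1 was at a log2 ratio of -0.38 and Dpt at -0.31, whereas Pdgfra was at 0.31. Of the osteoclast markers, Ctsk was abundant, with 2236 counts with Sparcl1 and 2382 in the control, and Calcr was at 0 in both libraries. Summed levels of the T and NK cell, B cell, mast cell and adipocyte lists were under 1 CPM in each library, those of the endothelial list 1.80 CPM with Sparcl1 and 2.37 CPM in the control, and those of the neutrophil list 1.14 CPM with Sparcl1 and 0.610 CPM in the control, nearly all from S100a8 (31 counts with Sparcl1 and 15 in the control, log2 1.16). Cd3e, Cd3d, S100a9 and Mpo were at 0 in both.

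Socs3 had more reads with Sparcl1 than in the control, and the 95% counting intervals of the other 7 members included equality. These intervals were wide for Socs1, at a fold of 1.06 (0.86 to 1.30), and Cish, at 1.13 (0.89 to 1.44). No member reached the size set for calling a gene, which asks for 20 or more summed counts, a 2-fold difference and a 95% counting interval that leaves out equality. Over the whole table, 0.954% of 13317 genes passed this rule as higher and 0.946% as lower. Of the 8 members, 5 had log2 ratios above 0 and 3 below (7 and 1 with total counts as library sizes), and their median was 0.03, against -0.00 over all genes. Ratios are Sparcl1 over control, and intervals cover the counting error of reads alone.

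**Figure D1:**
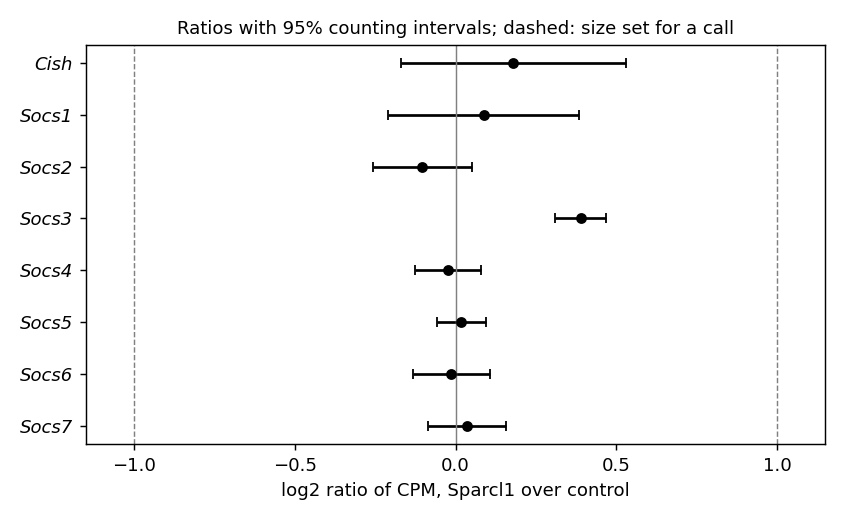
Log2 ratio of CPM, Sparcl1 over control, for each member, with its 95% Clopper-Pearson counting interval (1 library per group). Socs3 lies at 0.39 with an interval above 0, the intervals of the other 7 genes include 0, and none reaches the dashed lines at 1 and -1.

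Socs3, which blocks JAKs bound to gp130 and related receptors, had 2820 counts with Sparcl1 and 2336 in the control. Scaled, this was 104 CPM (95% Poisson interval 99.9 to 108) with Sparcl1 and 79.2 CPM (76.0 to 82.5) in the control, so the counting intervals of the libraries do not overlap. The fold was 1.31 (1.24 to 1.38), a log2 ratio of 0.39 (0.31 to 0.47). Intervals above 0 were common in the table, at 20.1% of genes, and intervals below 0 made up 21.6%. Socs3 was the 1 member of 8 with such an interval, and no member had one below 0. Among the 3159 genes with summed counts of 3000 to under 10000, where Socs3 falls, 95% of log2 ratios fell between -0.32 and 0.30, and 39 genes (1.23%) had a ratio as high as that of Socs3 or higher. In bulk RNA, more cells that express a gene and more RNA per cell cannot be told apart.

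Macrophages are among the cells that express Socs3, and their markers did not move together. Of 10 macrophage markers 5 had ratios above 0 and 5 below, with a median log2 ratio of 0.01. Itgam was at 0.45, Mrc1 at 0.33, Lyz2 at 0.31 and Cd14 at 0.22, each with an interval above 0. Fcgr1 at -0.61, Ptprc at -0.19 and Csf1r at -0.05 had intervals below 0. The intervals of Cd68 at 0.03, Adgre1 at -0.00 and Aif1 at -0.32 included 0. The part of these cells in the Socs3 value was not tested.

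Socs3 was also set against each other member within a library, a comparison that needs no scaling and was chosen after the values were seen. Socs3 had 1.06 reads per read of Socs5 with Sparcl1 and 0.821 in the control, a log2 ratio of ratios of 0.37 (95% counting interval 0.26 to 0.48). Against the other 7 members summed it was 0.388 with Sparcl1 and 0.297 in the control, 0.39 (0.30 to 0.48). The intervals also lay above 0 against Socs2, Socs4, Socs6 and Socs7, where the ratio of ratios ran from 0.35 to 0.49. Against the rare members Socs1 (0.30, -0.01 to 0.61) and Cish (0.21, -0.15 to 0.57) they included 0, so a difference was not detectable at this depth. Socs3 took 28.0% of all SOCS family reads with Sparcl1 (27.1% to 28.9%, Clopper-Pearson) and 22.9% in the control (22.1% to 23.7%).

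Socs1, the strongest inhibitor of interferon signalling in the family, had 189 counts with Sparcl1 and 193 in the control. These were 6.95 CPM (5.99 to 8.01) with Sparcl1 and 6.54 CPM (5.65 to 7.53) in the control, with overlapping intervals. The log2 ratio was 0.09 (-0.21 to 0.38), so differences of up to about 1.30-fold in the direction of Sparcl1 lie within counting error.

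Cish, the founding member, which is induced by STAT5 and binds receptors for growth hormone, prolactin and erythropoietin, had 142 counts with Sparcl1 and 136 in the control. Its level was 5.22 CPM (4.40 to 6.15) with Sparcl1 and 4.61 CPM (3.87 to 5.45) in the control, and the log2 ratio of 0.18 (-0.17 to 0.53) is the least well fixed of the 8. Also, 2 noncoding genes on the opposite strand, Gm17040 and Gm17041, overlap 261 and 479 bases of Cish exons, 4.07% and 7.46% of them. Whether counting kept strand is not given in the sources used here, so reads of these genes and of Cish might not be separated. Socs2, the STAT5-induced brake on growth hormone receptor signalling, had 642 counts with Sparcl1 and 748 in the control. This was 23.6 CPM (21.8 to 25.5) with Sparcl1 and 25.4 CPM (23.6 to 27.2) in the control. Its log2 ratio of -0.10 (-0.26 to 0.05) was the lowest of the family, with an interval that includes 0.

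Because STAT sites near the start are the textbook route of SOCS induction, RefSeq promoter windows (GRCm38.p6, 250 bases before and 50 after the start) were searched for the STAT motif TTCNNNGAA, which reads the same on both strands, and, chosen after the sequences were seen, for GAAANNGAAA on both strands, the core of the interferon response element. The windows searched were those of Socs1, Socs3, Socs4 and Cish, matched by symbol, and Socs2, Socs5, Socs6 and Socs7 were not searched. The STAT motif occurs in 8.30% of 32851 windows and the interferon core in 3.44%. Socs3 holds 1 STAT match, 154 bases before the start. Cish holds 2, both just after the RefSeq start, and GENCODE places these and all 250 bases before that start inside the transcribed part of the gene. Socs1 has no STAT match and 2 overlapping interferon matches, 83 and 77 bases before the start, and Socs4 has neither motif. The matched stretches are shown 5′ to 3′ with the motifs in capitals: the bases before the start for Socs1 (chr16:10785537-10785786, minus strand) and Socs3 (chr11:117969367-117969616, minus strand, which GENCODE places in an intron of a longer transcript), and 30 bases around the start of Cish (chr9:107296654-107296683, plus strand).
Socs1: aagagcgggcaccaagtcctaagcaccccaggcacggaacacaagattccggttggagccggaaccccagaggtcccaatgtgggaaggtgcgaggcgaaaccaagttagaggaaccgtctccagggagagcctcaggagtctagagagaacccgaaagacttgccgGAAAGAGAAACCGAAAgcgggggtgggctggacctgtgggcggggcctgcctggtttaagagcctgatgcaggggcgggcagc
Socs3: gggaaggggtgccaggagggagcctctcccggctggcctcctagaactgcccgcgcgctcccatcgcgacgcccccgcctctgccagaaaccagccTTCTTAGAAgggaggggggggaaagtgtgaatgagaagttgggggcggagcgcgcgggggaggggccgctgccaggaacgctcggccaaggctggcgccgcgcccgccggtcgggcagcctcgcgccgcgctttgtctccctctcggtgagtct
Cish: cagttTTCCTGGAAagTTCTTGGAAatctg
A match describes letters only: Socs3, at a log2 ratio of 0.39, and Cish, whose interval includes 0, both hold the STAT motif.

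The growth factor branch was nearly level. Socs5, known for promoting loss of the EGF receptor and for acting on interleukin 4 signalling, had 2655 counts with Sparcl1 and 2844 in the control. Its levels were 97.6 CPM (93.9 to 101) with Sparcl1 and 96.4 CPM (92.9 to 100.02) in the control, and its log2 ratio of 0.02 (-0.06 to 0.09) was the best fixed of the family. Socs4, the closest relative of Socs5 and also linked to the EGF receptor, had 1446 counts with Sparcl1 and 1594 in the control, and a log2 ratio of -0.02 (-0.13 to 0.08). Scaled, Socs4 stood at 53.2 CPM with Sparcl1 and 54.0 CPM in the control.

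Socs6, which binds the receptor Kit and insulin receptor substrates, had 1096 counts with Sparcl1 and 1200 in the control, or 40.3 CPM with Sparcl1 and 40.7 CPM in the control. Its log2 ratio was -0.01 (-0.13 to 0.11). Socs7, which binds the adaptor Nck and insulin receptor substrates, had 1092 counts with Sparcl1 and 1155 in the control, or 40.1 CPM with Sparcl1 and 39.2 CPM in the control, and a log2 ratio of 0.04 (-0.08 to 0.16). For all 4 genes of this branch the counting intervals of the libraries overlap, and the interval of the ratio leaves room for at most 1.11-fold more reads with Sparcl1. Every member other than Socs3 lay inside the middle 95% of log2 ratios of genes with similar summed counts. This range was -0.55 to 0.58 for genes with 200 to under 1000 counts, such as Socs1 and Cish, and -0.36 to 0.37 for 1000 to under 3000, such as Socs2, Socs6 and Socs7.

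**Figure D2:**
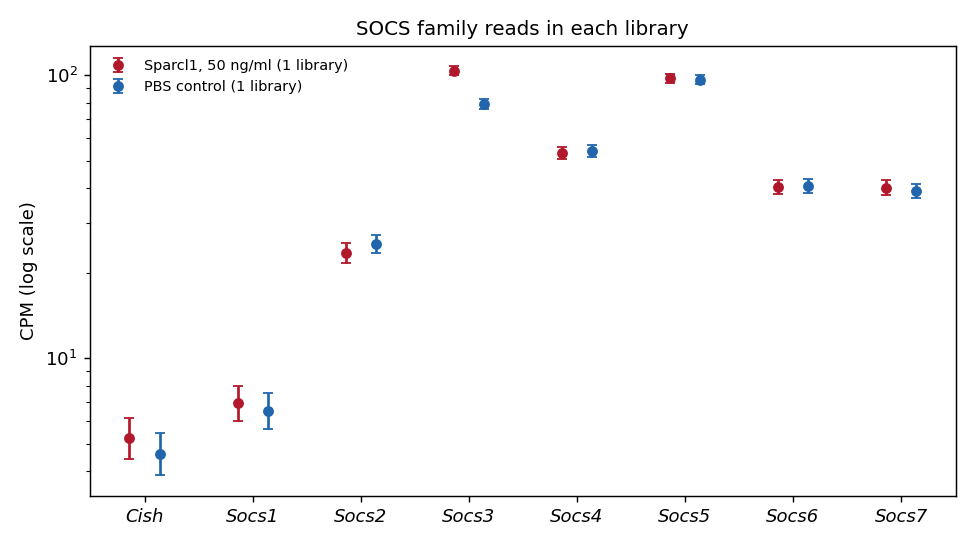
CPM of each member on a log scale in the Sparcl1 library (red, left) and the control library (blue, right), with exact 95% Poisson counting intervals and 1 library per group. The points of a gene overlap in their intervals except for Socs3, at 104 CPM with Sparcl1 and 79.2 CPM in the control.

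**Figure D3:**
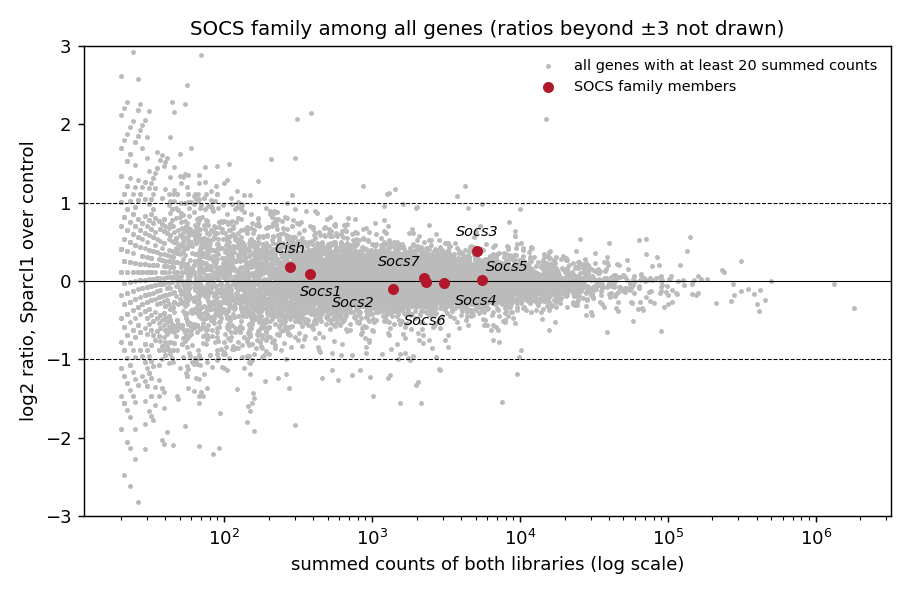
Log2 ratio, Sparcl1 over control, against summed counts of both libraries on a log scale for all genes with at least 20 summed counts, with the 8 members in red. Socs3 sits at the upper edge of genes with 3000 to under 10000 counts, and the other members lie inside the cloud.

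To compare the members with each other, CPM was divided by the length of each gene's exons merged over all transcripts in the GENCODE M21 annotation of GRCm38. Socs3 had the highest level per kilobase, 35.9 CPM per kb (34.6 to 37.2) with Sparcl1 and 27.4 (26.3 to 28.5) in the control. It stood above 91.0% of all genes tested with Sparcl1 and above 87.9% in the control. Socs5 came next, at 15.2 CPM per kb (14.6 to 15.8) with Sparcl1 and 15.0 (14.5 to 15.6) in the control, then Socs4 at 7.73 with Sparcl1 and 7.86 in the control, and Socs7 at 5.53 with Sparcl1 and 5.39 in the control. Socs6 had 3.55 CPM per kb with Sparcl1 and 3.58 in the control. Socs2 (2.48 with Sparcl1, 2.66 in the control) and Socs1 (2.39 with Sparcl1, 2.25 in the control) were neighbours whose intervals overlap in each library. Cish was lowest, at 0.813 CPM per kb (0.685 to 0.959) with Sparcl1 and 0.718 (0.603 to 0.850) in the control, above 15.2% of genes with Sparcl1 and 13.8% in the control. Apart from Socs2 and Socs1, no neighbours overlap in their counting intervals, and the order was the same in both libraries. Socs2 and Socs6 have many annotated transcripts, 14 and 9, and the length of the longest transcript gives both higher levels. Socs6 then had 6.68 CPM per kb with Sparcl1 and 6.74 in the control, above Socs7 at 5.72 with Sparcl1 and 5.58 in the control. Socs2 had 5.56 with Sparcl1 and 5.98 in the control. With this length, the counting intervals of Socs2 and Socs7 overlap in each library, and those of Socs2 and Socs6 overlap in the control, so these neighbours were not separated. The order of Socs7, Socs6 and Socs2 therefore depends on the length used, while Socs3, Socs5 and Socs4 stay on top.

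**Figure D4:**
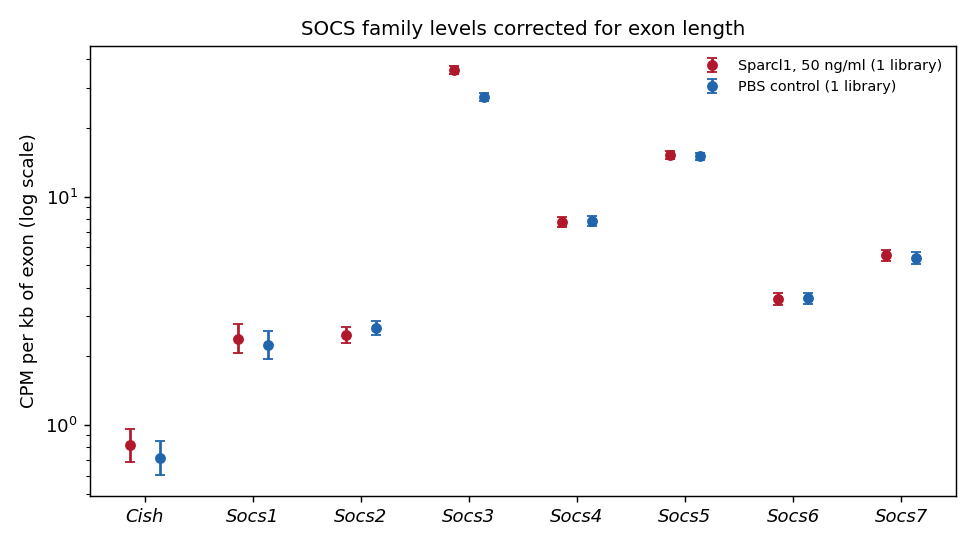
CPM per kilobase of merged exons on a log scale for each member in the Sparcl1 library (red, left) and the control library (blue, right), with exact 95% Poisson counting intervals and 1 library per group. Levels span from 0.813 CPM per kb for Cish to 35.9 for Socs3 with Sparcl1, and the control library holds the same order.

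The genes are scattered over the genome (GRCm38): Cish on chromosome 9 at 107296026 to 107302784, Socs2 on chromosome 10 at 95385362 to 95417180, Socs4 on chromosome 14 at 47276931 to 47296102, Socs1 on chromosome 16 at 10782240 to 10785536 and Socs5 on chromosome 17 at 87107679 to 87137839. Socs7 and Socs3 share chromosome 11, at 97362551 to 97398542 and 117966079 to 117970047. Socs6 is on chromosome 18 at 88665224 to 88927481. RefSeq lists Socs4 as an older name of Socs6 and Socs7 as an older name of Socs4, so values go by the symbols of the table. The coding part lies in 1 exon in Socs1, Socs3, Socs4, Socs5 and Socs6, in 2 exons in Socs2, in 3 in Cish and in 9 in Socs7. Coding lengths split the family: 594 to 771 bases in Socs1, Socs2, Socs3 and Cish, against 1308 to 1737 in Socs4 to Socs7. After the coding part, in the transcript with the longest coding sequence, Socs3 and Socs5 each hold 4 copies of ATTTA, a pentamer of AU-rich elements that are known to shorten mRNA life, a number that 25.6% of 18764 coding genes reach. Socs7 holds 5 in 5184 bases, Cish 3 in 1087, Socs2 2 in 1163 and Socs1 none in 1993, and the median over coding genes is 1. Socs6 holds 1 in 693 bases, but its longest annotated transcript has 6036 bases, so its count may depend on the transcript used. Socs4 holds 17 in 5182 bases, a number reached by 1.40% of genes, though per kilobase 19.6% of genes have as many.

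The inputs of the loop were examined next. Of 11 ligands of gp130-type receptors, 8 had enough counts. Il6 was higher with Sparcl1, with 64 counts against 25 in the control (log2 1.47, 0.79 to 2.20), and so was Il27, with 18 against 5 (1.97, 0.48 to 3.75), both from few reads. Among genes with 20 to under 100 summed counts, where both fall, 95% of log2 ratios lay between -1.56 and 1.64, so Il6 was inside this range and Il27 above it. The most abundant, Ebi3 and the cardiotrophin gene Ctf1, were at -0.15 and -0.28, and the list median was -0.19. Among 16 other ligands of JAK-coupled receptors, 4 could be compared, none passed, and the median was 0.07. The most abundant of these were Tslp, with 546 counts with Sparcl1 and 576 in the control, and Il7, with 258 with Sparcl1 and 283 in the control. Growth hormone (Gh), prolactin (Prl), erythropoietin (Epo), Ifnb1 and Ifng had 0 counts in both libraries, which for counting error alone allows up to 3 counts in each.

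None of 26 receptor genes passed the rule, and their median log2 ratio was 0.07. The shared subunit gp130, encoded by Il6st, was abundant, with 42842 counts with Sparcl1 and 44887 in the control (log2 0.05), and Osmr, the oncostatin M receptor, was at 0.10. For the other end of the pathway, Jak1 was at -0.10 (-0.14 to -0.06), Jak2 at -0.14, Jak3 at 0.18 and Tyk2 at 0.11. Among STATs, Stat3, which induces Socs3, had 7776 counts with Sparcl1 and 8172 in the control (0.05, 0.00 to 0.09). Stat5a, Stat5b and Stat6 were at 0.16, -0.06 and 0.03. Stat2 was at -0.76 (-0.83 to -0.68), short of the size set, and Stat4 had 11 counts with Sparcl1 and 9 in the control.

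Targets of the same pathways were set beside the SOCS genes they are known to share a route with. Of 19 STAT3 targets, 17 had ratios above 0 and 14 an interval above 0, with a median log2 ratio of 0.21. Over all genes, 49.6% of ratios and 20.1% of intervals lay above 0. The share of intervals above 0 was 24.2% for genes with 3000 to under 10000 summed counts and 31.3% from 10000 counts up. This list was chosen with earlier results of these data known. None of the 19 targets passed the rule of size. In the order of ratios Socs3, at 0.39, fell between Ier3 at 0.40 and the acute-phase gene Serpina3n at 0.21. Above it were, among others, Bcl3, an NF-κB cofactor, at 0.99, the C/EBP factor genes Cebpd at 0.58 and Cebpb at 0.42, the receptor gene Il4ra at 0.56 and the AP-1 subunit gene Junb at 0.44. Below it were, among others, Lrg1 at 0.20, Lcn2 at 0.13, Pim1 and Myc at 0.08 each and Mcl1 at 0.06. The most abundant targets were Timp1 at 0.53 and Osmr at 0.10. At the low end, Fos was at -0.08 and Il1rn at -0.18. Several of these genes also respond to NF-κB.

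Interferon-inducible genes, the set that goes with Socs1, mostly had ratios below 0. Of 15 with enough counts, 12 had ratios below 0, the median log2 ratio was -0.31, and 2 passed as lower, the interferon-inducible GTPase genes Gbp3 and Iigp1. Intervals lay below 0 for 8 of the 15 and above 0 for 1. Over all genes, 0.946% passed as lower and 49.6% of ratios lay above 0. Of all intervals, 21.6% lay below 0 and 20.1% above. Gbp3 had 376 counts with Sparcl1 against 935 in the control (-1.20), and Iigp1 had 254 against 759 (-1.46). The most abundant were Tap1, a peptide transporter, at -0.26, and the GTPase gene Irgm2, at -0.84. Socs1, which type I and type II interferons both induce, was at 0.09 (-0.21 to 0.38). In the order of ratios it fell between the chemokine gene Cxcl10 at 0.02 (-0.36 to 0.40) and Ciita at 0.12 (-0.66 to 0.90). Each of these intervals includes 0, so the order is not fixed by the counts. Irf1, an interferon-induced transcription factor, was at 0.49 (0.33 to 0.65). Gbp3 resembles other members of its family, so its value is uncertain if reads matching several copies were split or dropped.

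STAT5 targets, the set that goes with Cish and Socs2, showed no common direction. Of 8 genes 4 had ratios above 0 and 4 below, with a median log2 ratio of -0.04 and none past the rule. Intervals lay below 0 for 3 of the 8 and above 0 for 1, Bcl2l1, at 0.18 (0.10 to 0.25). Ccnd2, a cyclin, was most abundant, at -0.12, and Igf1, the growth factor downstream of growth hormone, had 3420 counts with Sparcl1 and 4611 in the control (-0.31, -0.38 to -0.25). Ghr, the receptor that Socs2 restrains, was at -0.21 (-0.32 to -0.10). Of 19 genes with enough counts that encode proteins SOCS members are known to bind, Ghr included, none passed the rule and 13 had ratios below 0, with a median of -0.07. Intervals lay below 0 for 7 of the 19 and above 0 for 3. Over all genes, 49.6% of ratios lay above 0, and 21.6% of intervals lay below 0 and 20.1% above.

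**Figure D5:**
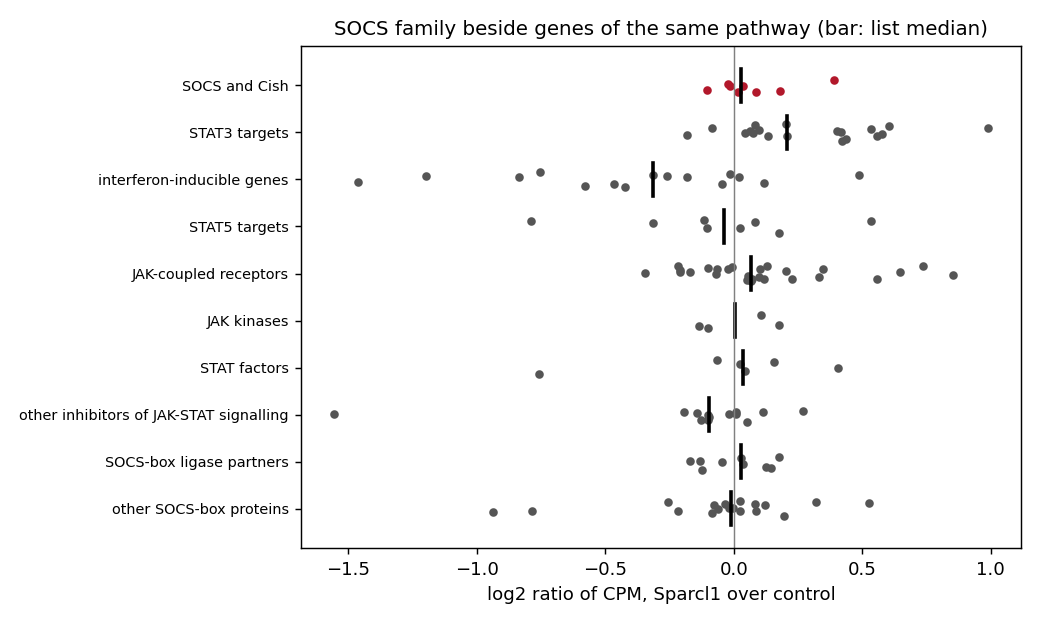
Log2 ratio of CPM, Sparcl1 over control, for genes with at least 20 summed counts in the SOCS family (red) and in lists of the same pathway (grey), with 1 point per gene spread vertically at random and a bar at each list's median. The STAT3 target median lies at 0.21, the median of interferon-inducible genes at -0.31 and the SOCS family median at 0.03.

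Of 13 other brakes on the pathway the 1 past the rule was Usp18, which blocks the interferon receptor and strips Isg15 from proteins. Usp18 had 369 counts with Sparcl1 against 1176 in the control (log2 -1.56, -1.73 to -1.39). Its interval was 1 of 5 below 0 among the 13, and 2 lay above 0. Over all genes, 21.6% of intervals lay below 0 and 20.1% above. The other 12 ratios ran from -0.19 for the phosphatase gene Ptprc (-0.28 to -0.10) to 0.27 for the STAT inhibitor gene Pias3 (0.16 to 0.38). The phosphatase genes Ptpn11 and Ptpn1 were the most abundant, at 0.01 and 0.11. The list median was -0.10. A list of 9 genes for cullin ubiquitin ligases and their partners, among them the ligase that the SOCS box recruits, was expressed throughout. None of the 9 passed the rule, and Ube2f had the fewest reads, at 721 counts with Sparcl1 and 857 in the control. The elongin genes Elob and Eloc were at 0.15 and -0.05, and the cullins Cul5 and Cul2 at -0.17 and -0.12. The ring proteins Rnf7 and Rbx1 were at 0.18 and 0.03. Nedd8, Ube2f and Arih2, which act together with cullins, were at 0.12, -0.13 and 0.03.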

How the data were processed

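The deposited values are raw counts of reads, listed by gene symbol in 1 table whose columns carry the names of the libraries. The submitters' processing notes name HTSeq, STAR, Trimmomatic and FastQC and the build mm10. Versions, annotation and strand setting are not given in the sources used here. Reads shared by several genes may have been dropped or split. In 26 rows the symbol had become a calendar date, and 2 of these repeat; these counted towards the totals.

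Counts were scaled to CPM with trimmed mean of M-values (TMM) factors, 1.01 (Sparcl1) and 0.988 (control), from edgeR 4.0.16 in R 4.3.3. Ratios, exact Clopper-Pearson and Poisson intervals at the 95% level and lists were computed with Python 3.11.15, numpy 2.4.6, scipy 1.17.1 and pandas 2.3.3, and figures drawn with matplotlib 3.10.9. A count of 0 entered as 3. With 1 library per group nothing was tested across libraries and there are no p-values. Reads copied by PCR carry no molecular identifiers here and need not be independent, so intervals cover counting error only. The ratio, its counting interval and the rule of size were tested on simulated counts. These counts held counting error only, without spread between cultures, and were scaled by total counts.

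The members, the 12 pathway lists and the marker lists were chosen with earlier results of these data known. Besides the members, the text names the genes of each pathway list past the rule, its 2 most abundant genes and all JAKs, reported STATs and ligase partners; other genes were named after their values were seen. Exon lengths come from GENCODE M21 and were found for 99.6% of genes tested. Protein sequences were not used here, and 2 list genes are not reported here; they were taken out of the lists, counts and medians, and the interferon-inducible list was renamed, after values were seen. Alternatives were other scalings (total counts, upper-quartile factors, DESeq2 1.42.0 size factors), count minimums, folds, a prior count and another length.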

Additional observations from a re-analysis of the deposited data

How the results depend on the processing

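No paired analysis was possible because each group has 1 library, and no library could be left out. Of 112 alternative values, 95 stayed within counting error or within 1.5 times the count and 17 moved. Changes of sign were not part of this rule. With total counts as library sizes, Socs4 went from -0.02 to 0.01 and Socs6 from -0.01 to 0.02. Every alternative kept the number of members past the rule at 0 in each direction. Under each scaling Socs3 was the 1 member with an interval above 0. Total counts as library sizes raised all log2 ratios by 0.03, which put 7 of 8 members above 0. Over all genes, 127 were higher and 126 lower in the main setting. With no count minimum 201 were higher. A minimum of 100 summed counts gave 20 higher and 38 lower, a fold of 1.5 gave 309 and 313, and a fold of 3 gave 44 and 36, because these settings change which genes qualify. With the longest annotated transcript as length, levels in CPM per kb with Sparcl1 became 40.6 for Socs3, 21.0 for Socs5, 6.68 for Socs6, 5.56 for Socs2 and 1.11 for Cish, and in the control 31.0, 20.7, 6.74, 5.98 and 0.982 for the same genes. Depth limits Socs1 and Cish most, whose intervals are over 0.5 wide on the log2 scale.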

Other observations

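The SOCS box is shared by other protein families that present other targets to the same ligase. Of 26 such genes 18 had at least 20 summed counts, none passed the rule, and their median log2 ratio was -0.01 (0.02 with total counts as library sizes), with 8 above 0 and 10 below. The WD-repeat genes were the most abundant: Wsb2 had 4036 counts with Sparcl1 and 4482 in the control (log2 -0.03), and Wsb1 had 1924 with Sparcl1 and 2201 in the control (-0.08). Among the ankyrin-repeat Asb genes, Asb6 was at 0.32 (95% counting interval 0.20 to 0.44), with 1231 counts with Sparcl1 and 1070 in the control. Asb1 was at -0.22 (-0.35 to -0.09), with 857 counts with Sparcl1 and 1081 in the control. Asb9, Asb11 and Asb12 were at 0 in both libraries. The names of Asb6 and Asb1 were picked after their values were seen.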
